A study of Mus musculus with 6 samples.

Results

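The tanycyte genes Rax, Col23a1, Gpr50, Vim, Nes and Scn7a were followed through hypothalamic libraries made by translating ribosome affinity purification. They were taken by gene symbol, and all 6 have a row among the 32531 gene rows of each library. The mice were adult, untreated controls of the line Lhx5-TRAP DT154, which carries Lhx5-EGFP/Rpl10a, so that every sample comes from the same transgenic background. In this method cells in which the driver gene is active make an EGFP-tagged ribosomal protein L10a, and antibodies to EGFP pull down the ribosomes of those cells with their RNA. The 3 libraries of immunopurified RNA (IP) were set against 3 libraries of unbound RNA, for which the titles say Input and the sample type says Unbound. The labels give neither sex nor pooling of animals and do not say that the replicates came from separate animals, so p-values measure the spread between these libraries only. The driver, Lhx5, encodes a LIM-homeodomain transcription factor of neurons, so the tagged cells were not chosen as tanycytes.

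Tanycytes are elongated glial cells of the ependymal layer that line the floor and lower walls of the third ventricle and send a process into the arcuate nucleus, the median eminence and neighbouring parenchyma. They handle thyroid hormone, sense metabolites and keep features of neural progenitors. Rax is a homeodomain transcription factor needed for the formation of the hypothalamus and the eye and is kept in adult tanycytes. Vim (vimentin) and Nes (nestin) are intermediate filament proteins of radial glia, progenitors and tanycytes, and both are also made by cells of blood vessels. Col23a1 is a collagen with a membrane-spanning segment. Scn7a encodes Nax, a sodium-level sensor related to the voltage-gated sodium channels and found in glia of the sensory circumventricular organs. Gpr50 is an orphan receptor related to the melatonin receptors that is made by tanycytes and also by neurons of the dorsomedial hypothalamus.

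The libraries held 32471045 to 46293837 reads assigned to genes. Levels are CPM (read counts scaled to a common library total) after TMM scaling; errors of levels are SD over 3 libraries. Lhx5, the driver gene, stood at 56.7 to 70.5 CPM in IP and 1.86 to 6.28 CPM in unbound libraries. Of 16991 genes put through the quasi-likelihood test of edgeR, 44.3% were called at a Benjamini-Hochberg adjusted p under 0.05, 23.2% as lower and 21.1% as higher in IP, so calls are common in this comparison. With libraries scaled on pan-neuronal markers instead, the median of all genes moved from -0.01 to -0.66, and the calls split into 8321 lower and 583 higher against 3943 and 3586. Unbound replicate 3 stood apart from the other unbound libraries. Its summed choroid plexus markers were at 304 CPM against 2614 and 2847 CPM, its summed vascular markers at 63.1 CPM against 36.2 and 27.1 CPM, and its summed oligodendrocyte markers at 7015 CPM against 3829 and 3653 CPM. Results are therefore also given without it. IP replicate 3, which stays in those fits, likewise had the lowest choroid plexus sum of its group, at 128 CPM against 257 and 431 CPM. Its vascular (5.38 CPM) and oligodendrocyte (341 CPM) sums were also the lowest in IP, where those of unbound replicate 3 were the highest in unbound.

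The 6 genes did not move together. Vim, Col23a1 and Nes were called lower in IP, by 2.54 to 2.86 on the log2 scale. Scn7a was at similar levels in both fractions. Gpr50 was higher in all 3 IP libraries than in any unbound library but missed the threshold in the reported fit, which is on group alone. It passed in 5 of 16 alternative fits, the one blocked on replicate number among them (edgeR adjusted p = 0.0251). Rax had too few reads to enter the test. The reported fit thus has 3 called lower and 0 called higher among 6 genes, beside the 23.2% and 21.1% of genes tested. Nes passed the count filter through its unbound level alone, so its call is given as a description. The groups did not overlap for 4 of the 6, with 3 lower in IP (28.7% of genes tested) and 1 higher (27.1%), or 55.9% in either direction. IP and unbound are fractions of bulk RNA, so a lower level in IP measures neither cell number nor RNA per cell.

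**Figure D1:**
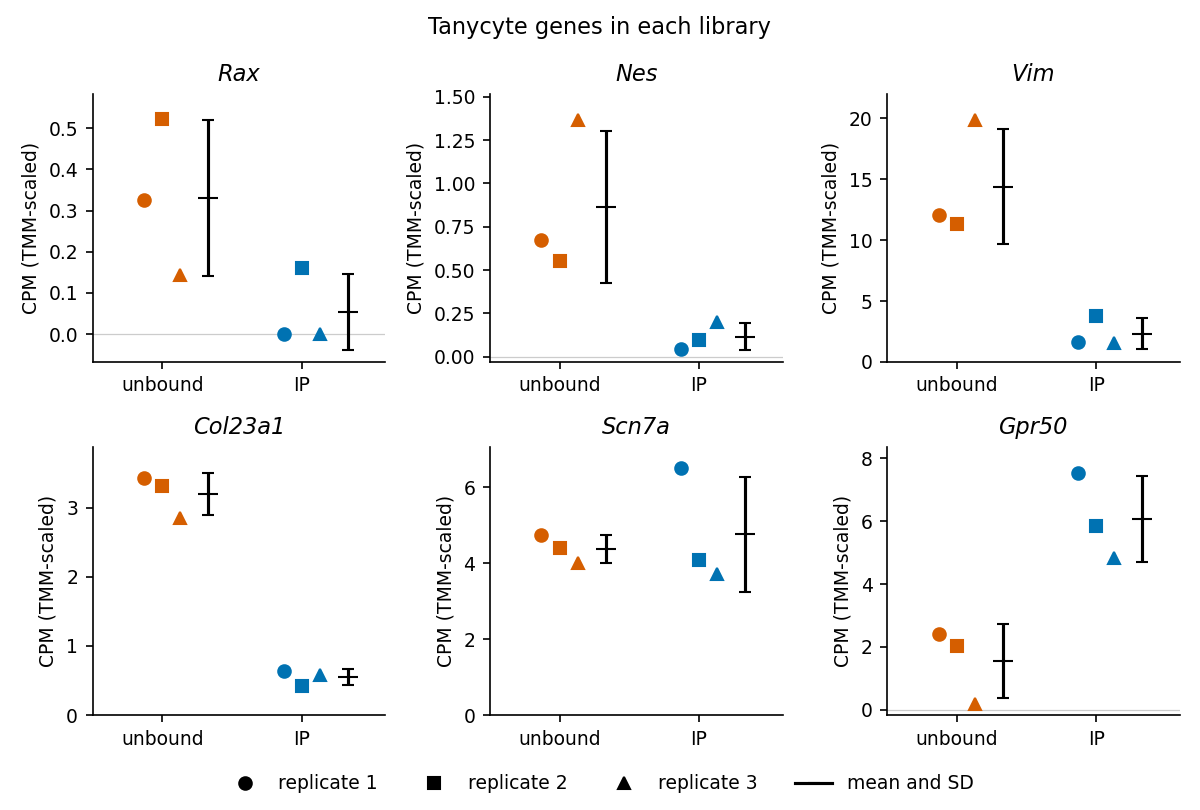
Level of each of the 6 tanycyte genes in each library (CPM after TMM scaling, linear axes that differ between panels; symbols mark replicate numbers, bars the mean and SD of 3 libraries). Nes, Vim and Col23a1 lie lower in every IP library, Gpr50 lies higher in every IP library, and Scn7a and Rax overlap.

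The upstream sequences of 3 members are shown because Nes and Col23a1 were lower in IP and Gpr50 was the member at a higher level there. Those of Col23a1 and Gpr50 end at the base before the RefSeq transcription start (GRCm38.p6, all on the plus strand), and that of Nes stops 15 bases short of that point, where exonic bases of GENCODE M21 begin. RefSeq windows were matched for 5 of the 6 genes, all but Rax. Capitals mark CCAAT (or ATTGG on the other strand) and GGGCGG (or CCGCCC), and the windows lie at chr3:87970843-87971077 for Nes, chr11:51289670-51289919 for Col23a1 and chrX:71663417-71663666 for Gpr50.
Nes: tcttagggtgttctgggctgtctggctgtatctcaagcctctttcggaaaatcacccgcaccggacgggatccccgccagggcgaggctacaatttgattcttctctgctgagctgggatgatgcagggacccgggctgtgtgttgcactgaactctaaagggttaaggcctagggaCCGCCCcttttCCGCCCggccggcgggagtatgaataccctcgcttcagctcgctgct
Col23a1: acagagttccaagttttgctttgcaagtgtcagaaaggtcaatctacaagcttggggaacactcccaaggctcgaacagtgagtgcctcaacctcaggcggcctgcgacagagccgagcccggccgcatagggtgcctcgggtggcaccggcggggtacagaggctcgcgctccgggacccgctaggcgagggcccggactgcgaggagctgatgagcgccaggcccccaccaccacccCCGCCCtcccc
Gpr50: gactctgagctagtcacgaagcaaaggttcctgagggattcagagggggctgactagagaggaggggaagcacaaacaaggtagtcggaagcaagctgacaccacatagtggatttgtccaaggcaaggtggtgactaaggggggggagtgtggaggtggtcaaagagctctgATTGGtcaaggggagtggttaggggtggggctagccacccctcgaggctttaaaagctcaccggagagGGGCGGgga

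In the 250 bases before the start, GGGCGG was found on either strand 2 times in Nes and 1 time each in Col23a1, Scn7a and Gpr50, and it is present in 32.7% of 32851 such windows. CCAAT was found 2 times in Vim and 1 time in Gpr50 (33.8% of windows). TATAAA was found in Vim alone of the 5, 32 bases before the start (12.4% of windows), and the homeodomain core TAATTA in 0 of the 5 (4.84% of windows). None of the 4 motifs was found in all 3 of Nes, Vim and Col23a1, and a match is no more than these letters in the window. The whole Vim window is exonic in GENCODE M21 and is not printed. Nes lies on chromosome 3 from 87971078 to 87980451, Vim on chromosome 2 from 13573927 to 13582826, Col23a1 on chromosome 11 from 51289920 to 51583918 and Gpr50 on chromosome X from 71663667 to 71669257, all on the plus strand. Scn7a lies on the minus strand of chromosome 2 from 66673425 to 66784914 (GRCm38, also called mm10, GENCODE M21). No other gene of that annotation overlaps any of these 5.

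Rax, the transcription factor of the set, was the rarest. It had 13, 18 and 6 reads in unbound replicates 1 to 3 and 0, 5 and 0 reads in IP replicates 1 to 3. As levels this is 0.33, 0.52 and 0.14 CPM in unbound and 0, 0.16 and 0 CPM in IP libraries. The IP library with reads overlapped the unbound range, since it lay above unbound replicate 3. The IP libraries at 0 allow up to 0.0713 CPM in replicate 1 and 0.0667 CPM in replicate 3 (3 reads, counting error only). Rax did not pass the count filter, and with no filter its log2 fold change was -2.69 ± 1.31 (SE; edgeR adjusted p = 0.132). Rax entered 5 of the fits that left out libraries and did not pass in 4 of them (edgeR adjusted p from 0.0604 to 0.234). The remaining fit, without IP replicate 2 (edgeR adjusted p = 0.0213), left 0 reads in IP and took Rax in through its unbound level alone, so it is a description and no support for a difference. An antisense gene, Raxos1, shares 1604 exonic bases with Rax in GENCODE M21, and no source names the strand setting of the counting, so reads of the pair cannot be told apart.

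Among 7 other homeobox genes of the eye and hypothalamic field, 4 were tested, 0 were called higher and 2 lower (21.1% and 23.2% over all genes tested). Lhx2, which tanycytes also make, fell by 1.5 on the log2 scale, from 32.8 ± 11.7 to 11.6 ± 5.37 CPM (n = 3 each). It did not pass without IP replicate 1 or without IP replicate 3. Six3, which acts beside Rax in the early eye field, fell by 1.25, but the call was lost in 7 of 16 alternative fits. Pax6 and Vax1 did not pass, at -0.50 and 1.33. Without unbound replicate 3, 4 of 5 tested genes of this list were lower (4448 of 17256 over all genes), Pax6 among them (-0.67, edgeR adjusted p = 0.0497). Six6 was at 1.90, 1.02 and 0 CPM in unbound replicates 1 to 3 and was not tested with all libraries. Like Rax it had its lowest unbound level in replicate 3.

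Vim was the most abundant of the 6 in unbound RNA. It stood at 12, 11.3 and 19.9 CPM in unbound replicates 1 to 3, and at 1.66, 3.76 and 1.58 CPM in IP replicates 1 to 3. Every IP library lay far under every unbound library, with unbound replicate 3 highest and IP replicate 2 highest within IP. The log2 fold change was -2.64 ± 0.39 (SE; edgeR adjusted p = 0.00118), a 6.22-fold difference. Without unbound replicate 3 it was -2.35 (edgeR adjusted p = 0.000607).

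Nes, the partner filament protein, was rare, with 27, 19 and 57 reads in unbound and 2, 3 and 9 reads in IP replicates 1 to 3. These are 0.68, 0.55 and 1.37 CPM against 0.05, 0.10 and 0.20 CPM. The groups did not overlap, and as for Vim the highest unbound value was in replicate 3. Nes gave a log2 fold change of -2.86 ± 0.71 (SE; edgeR adjusted p = 0.0107), and -2.37 without unbound replicate 3 (edgeR adjusted p = 0.0323).

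In unbound replicate 3, Vim was at 1.70 and Nes at 2.22 times the mean of the other unbound libraries. The 12 vascular markers together were at 2.0 times that mean there. Their summed level was 27.1 to 63.1 CPM in unbound and 5.38 to 9.54 CPM in IP libraries, and 9 of 11 tested fell in IP (23.2% over all genes tested). Some of these passed the count filter through their unbound level alone, such as Tek (5, 7 and 6 reads in IP replicates 1 to 3), so this count is a description. Cldn5, an endothelial junction gene that was too low to test, had 0 reads in IP replicates 1 and 3, which allows up to 0.0713 and 0.0667 CPM, and 3 reads in IP replicate 2. The part of vascular cells in the Vim and Nes values was not tested.

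The other intermediate filament genes went both ways, with 4 of 8 lower and 1 higher in IP and a median of -0.62. Over all genes tested these values were 23.2%, 21.1% and -0.01. Gfap, the astrocyte filament, fell by 3.10 (54.9 ± 19.9 to 6.45 ± 3.55 CPM, n = 3 each). Des, the filament of muscle and pericytes, fell by 3.56 and Synm, which assembles with vimentin, by 0.87. Des had 5, 0 and 3 reads in IP replicates 1 to 3. It passed the count filter through its unbound level alone, so its call is given as a description. Prph, peripherin, a filament of neurons, fell by 2.32 (edgeR adjusted p = 0.0122), a call that was lost without the third pair. Ina, another neuronal filament, rose by 0.77 (166 ± 39.6 to 283 ± 11.8 CPM, n = 3 each), a call that was lost with libraries scaled on pan-neuronal markers (0.13). The neurofilament genes Nefl, Nefm and Nefh did not pass, at 0.04, -0.03 and -0.38. Without unbound replicate 3 Nefl (0.52) and Nefm (0.48) passed as higher in IP.

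Col23a1 stood at 3.43, 3.31 and 2.85 CPM in unbound replicates 1 to 3 and at 0.64, 0.42 and 0.58 CPM in IP replicates 1 to 3. The groups lay well apart, and unbound replicate 3 was close to its partners. Its log2 fold change was -2.54 ± 0.36 (SE; edgeR adjusted p = 0.000919), a 5.80-fold difference, and -2.61 without unbound replicate 3 (edgeR adjusted p = 0.000717). Of the other transmembrane collagens, Col13a1 and Col17a1 were too low to test. Col25a1, which neurons make, was at 0.40 and did not pass (edgeR adjusted p = 0.192), but passed when same-numbered libraries were blocked (0.39, edgeR adjusted p = 0.0404).

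Scn7a was at 4.74, 4.42 and 4.0 CPM in unbound and at 6.51, 4.08 and 3.71 CPM in IP replicates 1 to 3. The groups overlapped, since IP replicate 1 was the highest library of all, IP replicate 2 lay within the unbound range and IP replicate 3 under it. The log2 fold change was 0.12 ± 0.28 (SE; edgeR adjusted p = 0.745). Its sign turned without IP replicate 1 (-0.16) and with libraries scaled on pan-neuronal markers (-0.52), and neither value passed. Among the voltage-gated sodium channel alpha subunits, which share its fold, 0 of 7 tested were called in either direction (44.3% over all genes tested), with a median of 0.45. Scn11a was at 1.32, and Scn1a and Scn2a1, the main brain subunits, were at 0.45 and 0.56. In the blocked fit Scn2a1 (0.59, edgeR adjusted p = 0.00856) passed as higher, and with pan-neuronal scaling Scn8a (-0.84) and Scn9a (-0.75) passed as lower.

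Gpr50 went the other way. It stood at 7.53, 5.85 and 4.82 CPM in IP replicates 1 to 3 against 2.41, 2.03 and 0.19 CPM in unbound replicates 1 to 3. The lowest IP library lay above the highest unbound library. The log2 fold change was 1.98 ± 0.71 (SE; edgeR adjusted p = 0.0530), which misses the threshold. In unbound replicate 3 only 8 reads of Gpr50 were counted, and its level there was 0.0864 times the mean of the other unbound libraries. Without that library the difference was smaller, at 1.44, and passed (edgeR adjusted p = 0.00329). Blocked on replicate number it was 2.35 (edgeR adjusted p = 0.0251). With pan-neuronal scaling it was 1.29 (edgeR adjusted p = 0.174).

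The melatonin receptors, the nearest relatives of Gpr50, were scarce and did not enter the test. Mtnr1a had 31, 15 and 11 reads in IP replicates 1 to 3 and 2, 3 and 0 reads in unbound replicates 1 to 3, so that it too was higher in every IP library. Mtnr1b had no read in any IP library.

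Ratios within a library do not depend on how libraries are scaled against each other. The log2 ratio of Gpr50 reads to the summed reads of the other 5 members was -0.23, -0.54 and -0.33 in IP replicates 1 to 3 and -3.14, -3.31 and -7.20 in unbound replicates 1 to 3. The groups did not overlap, and the difference of means was 4.18 (exact permutation test, two-sided p = 0.1, the smallest that 3 against 3 allows). Without unbound replicate 3 the difference was 2.85. With all libraries it was 2.53 against Scn7a alone and 5.31 against Vim alone (p = 0.1 each, same exact test). The log2 ratio of Gpr50 to Scn7a was 0.21, 0.52 and 0.38 in IP and -0.98, -1.12 and -4.38 in unbound replicates 1 to 3. Much of the difference against Scn7a thus rests on unbound replicate 3. For Scn7a against summed Rax, Nes, Vim and Col23a1, a ratio chosen after the values were seen, the difference was 2.74, given without a test. Its values were 1.47, -0.12 and 0.66 in IP and -1.80, -1.83 and -2.60 in unbound replicates 1 to 3. The groups did not overlap, but the genes were picked by these same values, so the ratio is a description and no support for a difference.

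**Figure D2:**
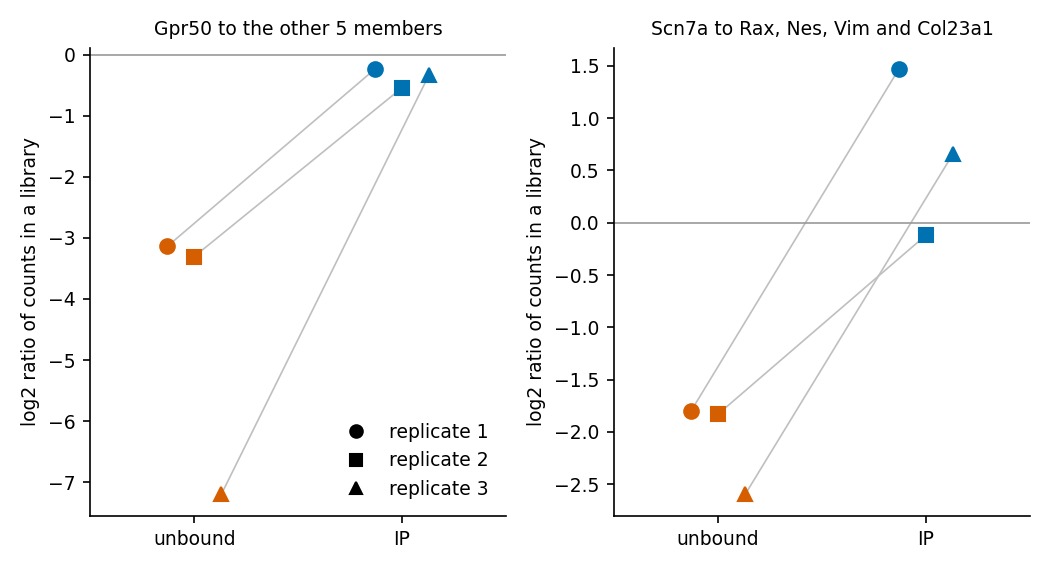
Log2 ratio of read counts within each library for Gpr50 over the other 5 members (left) and Scn7a over Rax, Nes, Vim and Col23a1 (right); symbols and grey lines join libraries with the same replicate number. Both ratios are higher in every IP library than in any unbound library, and unbound replicate 3 is lowest in both panels.

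Per kilobase of exon the order of the genes differed between fractions. In unbound RNA Vim led at 3.03 ± 1.0 CPM per kb (n = 3), above Scn7a at 0.60 ± 0.05, Col23a1 at 0.56 ± 0.05 and Gpr50 at 0.50 ± 0.39. The ranges of Scn7a and Col23a1 overlapped, as did those of Col23a1 and Gpr50. Nes (0.13 ± 0.07) and Rax (0.06 ± 0.03) came last, with overlapping ranges. The range of Nes also overlapped that of Gpr50, which lay under Nes in unbound replicate 3. In IP RNA Gpr50 led at 1.98 ± 0.45 CPM per kb, apart from Scn7a at 0.65 ± 0.21 and Vim at 0.49 ± 0.26, which overlapped. Col23a1 followed at 0.10 ± 0.02, and Nes (0.02 ± 0.01) and Rax (0.01 ± 0.02) overlapped at the end. The IP level was 16.2% of the unbound level for Rax, 13.2% for Nes, 16.2% for Vim and 17.1% for Col23a1 (ratios of group means). For Scn7a it was 109% and for Gpr50 393%. The value for Rax rests on the 5 reads of IP replicate 2, the other IP libraries being at 0, and is not comparable with the rest in precision.

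The rest of the tanycyte genes were mixed as well. Of 20 other listed genes 18 were tested, 8 fell and 1 rose (23.2% and 21.1% over all genes tested), with a median of -1.54. Dio2, the deiodinase that makes active thyroid hormone in tanycytes, went from 60.9 ± 7.14 to 4.49 ± 1.24 CPM (n = 3 each), a log2 fold change of -3.77 ± 0.22. Slco1c1, a thyroid hormone transporter, fell by 2.14, Sox2, a progenitor transcription factor, by 1.76 and Prdx6, a peroxiredoxin, by 1.74. Astrocytes make these genes too. Trhde, which encodes the enzyme that cleaves thyrotropin-releasing hormone and is made by tanycytes and neurons, rose from 19.7 ± 5.31 to 38 ± 7.28 CPM (0.95 ± 0.23; edgeR adjusted p = 0.0107). Its call was lost with pan-neuronal scaling (0.28, edgeR adjusted p = 0.412).

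Some tanycyte genes that did not pass were far lower in unbound replicate 3 than in its partners. Crym, a thyroid hormone binding protein, was at 47.3, 46.1 and 1.51 CPM in unbound replicates 1 to 3, and Ppp1r1b, which striatal neurons also make, at 567, 487 and 19.5 CPM. Without that library Crym (-2.96, edgeR adjusted p = 0.000117) and Ppp1r1b (-3.67, edgeR adjusted p = 6.14e-05) fell, and 12 of 19 tested genes of the list fell and 1 rose. Over all genes, 4448 fell and 4139 rose of 17256 tested in that fit. The summed level of the list was 194 to 292 CPM in IP and 370 to 1084 CPM in unbound libraries. In unbound libraries that sum was mainly Ppp1r1b and Prdx6 (196, 201 and 171 CPM in replicates 1 to 3), so it is no level of tanycyte RNA. Gpr50, Rax, Crym and Six6 were thus lowest among unbound libraries in replicate 3, where Vim and Nes were highest.

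**Figure D3:**
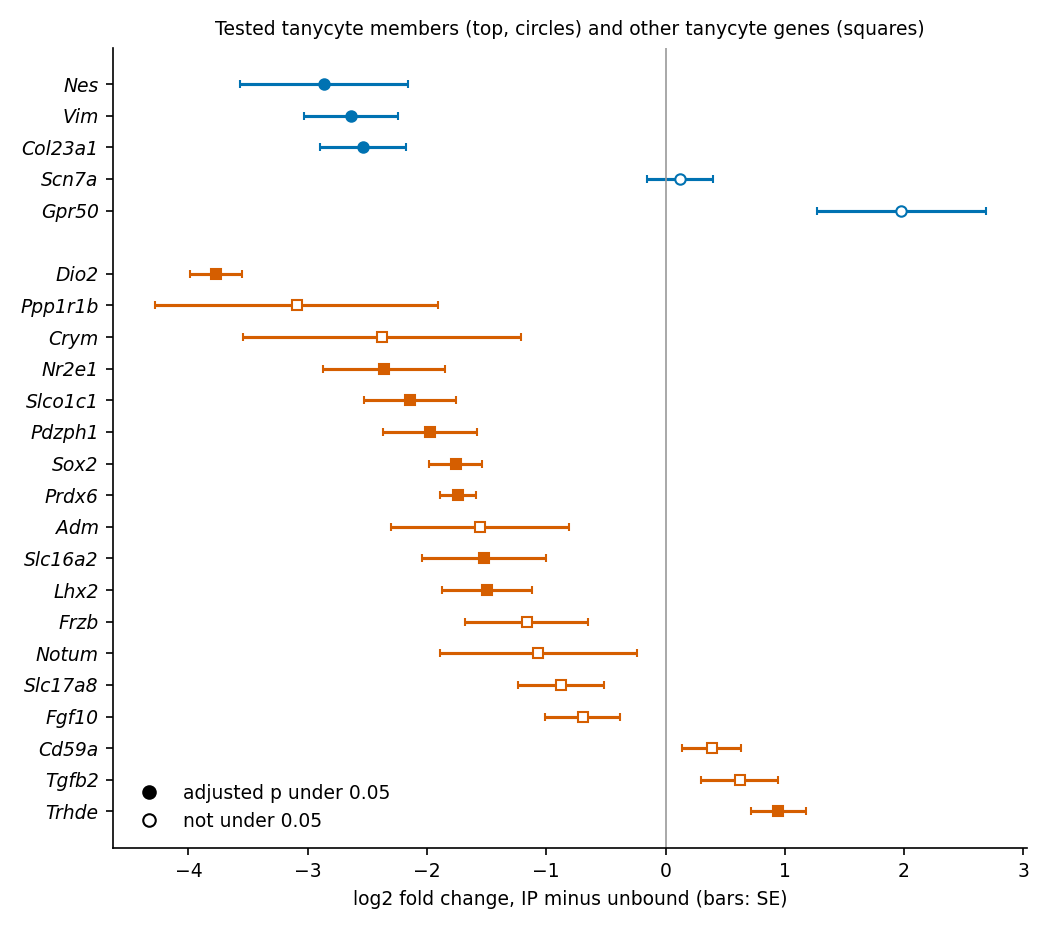
Log2 fold change of IP against unbound RNA with its standard error for the 5 tested members (circles) and 18 other tanycyte genes (squares); filled symbols have an adjusted p under 0.05. Nes, Vim and Col23a1 lie between -2.86 and -2.54, Gpr50 lies at 1.98 unfilled, and Trhde is the filled symbol to the right of 0.

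Other cell types of the tissue gave a frame for these values, beside the 23.2% of all genes tested that fell. Of 10 astrocyte markers 10 fell (median -3.13), among them Gjb6 (-4.10), Fgfr3 (-3.37), S100b (-3.34) and Slc1a2 (-2.58). Of 10 ependymal markers 7 fell (median -2.20), led by Ccdc153 (-3.84) and Tmem212 (-3.83) of the motile cilium. Blocked on replicate number, 5 of these 10 ependymal markers fell (4017 of 16991 over all genes). Oligodendrocyte markers fell in 10 of 10 cases (median -3.78, Opalin -4.08, Mog -3.99), precursor markers in 6 of 8 (median -2.60, Olig1 -3.56, Pdgfra -2.94) and microglial markers in 10 of 10 (median -3.21, Tyrobp -4.11, C1qb -3.74). Of 11 tested vascular markers 9 fell (median -2.85, Ly6c1 -5.05, Rgs5 -2.85). Ly6c1 had 3, 1 and 1 reads and Tmem212 had 2, 1 and 7 reads in IP replicates 1 to 3. Both passed the count filter through their unbound level alone. So did Ccdc153 (8, 5 and 25 reads in IP replicates 1 to 3), Tyrobp (19, 7 and 20 reads) and further ependymal, vascular and microglial markers. Their calls, and the counts of falls that hold them, are given as descriptions. Vim, Nes and Col23a1 lay within the range of each of these lists, except that Col23a1 (-2.54) lay just above the highest astrocyte marker. Scn7a and Gpr50 lay above every gene of these lists but 1, the precursor marker Lhfpl3 (0.40), which lay above Scn7a.

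Among 12 pan-neuronal markers there were 8 rises and 1 fall, that of Map2 (-0.66), with a median of 0.65. Over all genes tested 21.1% rose and 23.2% fell. Gap43 (1.01), a growth cone protein, Stmn3 (1.24), Tubb3 (0.91) and Uchl1 (0.86) were among the rises. Scaled on these same markers, 2 rose and 2 fell. The choroid plexus list had 7 tested genes and 3 falls, in Enpp2, Kcne2 and Otx2 (median -2.12), and without unbound replicate 3 it had 8 of 8. Kcne2 lost its call when blocked on replicate number (edgeR adjusted p = 0.0840) and in 6 of 15 alternative fits in all, Enpp2 in 5 of 16 and Otx2 in 2 of 16. Kcne2 had 9, 13 and 31 reads in IP replicates 1 to 3 and passed the count filter through its unbound level alone, so its call is a description. Summed astrocyte markers were at 146 to 341 CPM in IP against 1471 to 1777 CPM in unbound libraries, and summed ependymal markers at 15.8 to 18.2 CPM against 32.9 to 44.8 CPM. In the IP libraries the summed level was thus 14.7% of unbound for astrocytes, 11.9% for microglia, 8.85% for oligodendrocytes and 43.9% for ependymal markers. The ependymal sum was weighted to Rsph1 (6.56 CPM in IP, 7.34 CPM in unbound) and Foxj1 (4.59 and 9.70 CPM), its most abundant genes. The part of RNA from these cells in the IP values of the tanycyte genes was not tested.

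**Figure D4:**
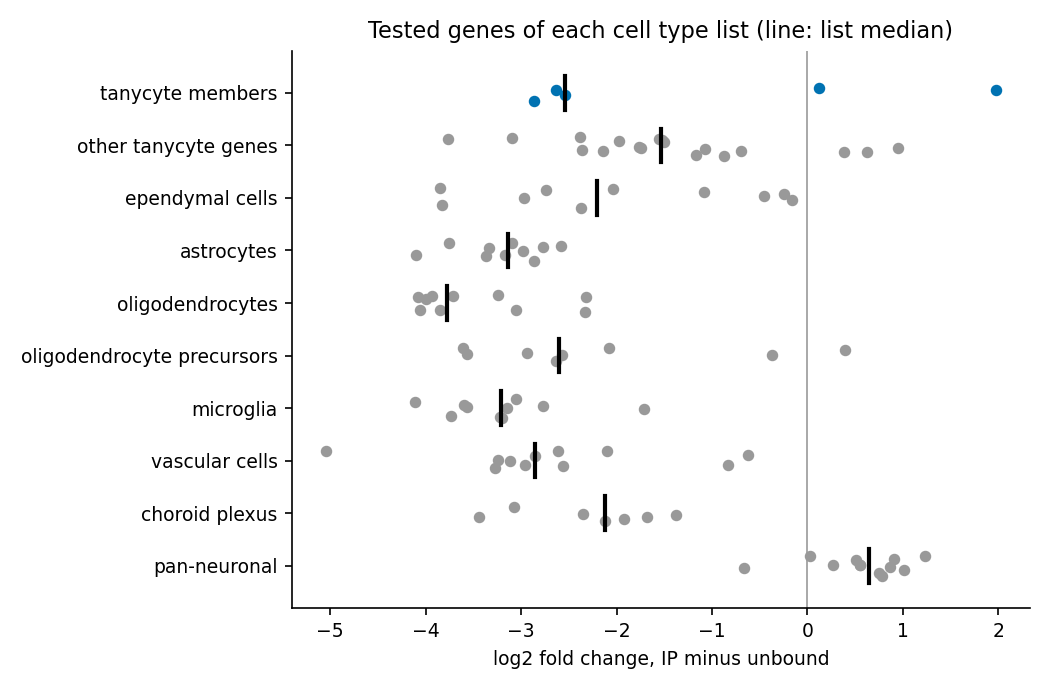
Log2 fold change of each tested gene by cell type list, with the list median as a line. The members split into 3 values between the ependymal (-2.20) and astrocyte (-3.13) medians, Scn7a near 0 and Gpr50 to the right of every pan-neuronal marker shown.

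The genes most like each tested member over the 6 libraries were named by the highest Pearson r of log2 CPM, as a description of libraries that share the contrast between fractions. For Vim they were Psat1, Tmem63a and Tmem125 (r of 0.998 to 0.999), of which Psat1 makes serine. For Col23a1 they were Gsap and Tyrobp, a microglial adaptor protein (r of at least 0.998). Nes was closest to Unc119b, DOKist4 and Cpox (r of 0.997 to 0.999). Between 448 and 787 genes reached an r of 0.95 with each of these 3 members, so a high r sets none of them apart. For Gpr50 the closest were Syt5, a synaptotagmin, Fam49b and Ctnna2, a neuronal catenin (r of 0.992 to 0.997), and 107 genes reached an r of 0.95. Scn7a had only 1 gene at that level, Prdx4, with Hist1h1c and Mad2l1bp just under it (r of 0.948 and 0.946). The likeness is in the pattern and not in the size of the difference: Syt5 was at 1.0 and Ctnna2 at 0.22 on the log2 scale, against 1.98 for Gpr50.

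**Figure D5:**
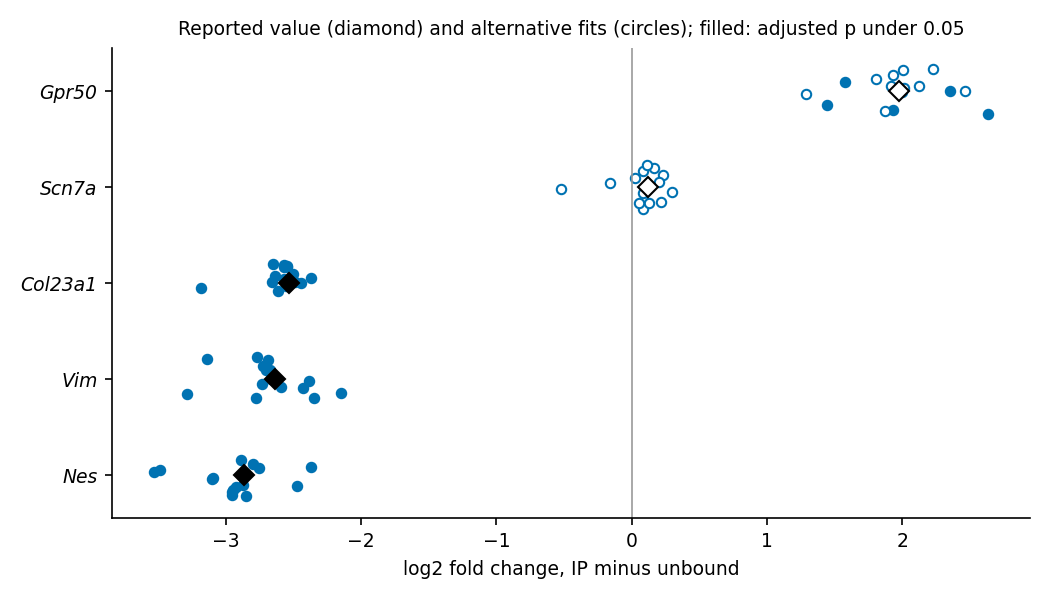
Log2 fold change of the 5 tested members in the reported fit (diamonds) and in the alternative fits (circles), filled where the adjusted p is under 0.05. Nes, Vim and Col23a1 are filled and left of 0 in every fit that tested them, Scn7a straddles 0, and Gpr50 is right of 0 throughout with 5 filled alternatives.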

How the data were processed

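RNA-seq counts of 3 IP and 3 unbound hypothalamic libraries were used. The authors deposited unnormalised read counts for each gene. Per the submitters' processing notes the aligner was STAR 2.0.0e, the counter HTSeq and the build mm10. The sources used here do not give the annotation, strand setting or overlap mode. The 6 entries that name no gene stayed out, and 45.0% to 47.7% of listed reads were assigned to genes. The reads left out differed by fraction, with no overlap between IP and unbound libraries. Multiply aligned reads were 43.8% to 45.0% of listed reads in IP and 31.8% to 32.9% in unbound libraries. Ambiguous reads were 1.58% to 1.64% in IP and 7.1% to 9.02% in unbound libraries. Those matching no gene were 7.6% to 8.0% in IP and 12.5% to 13.5% in unbound libraries. The effect of these losses on the contrast, and on Rax with its overlap with Raxos1, was not tested.

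The test was the quasi-likelihood test of edgeR 4.0.16, run under R 4.3.3 (filterByExpr with a minimum count of 10 and minimum total of 15, TMM factors from the genes that passed this filter with library totals over all gene rows, robust quasi-likelihood fit on group alone, Benjamini-Hochberg adjustment over 16991 genes, threshold 0.05). SE is the log2 fold change over the square root of F. The fitted log2 fold changes and the calls, but not the SE, were checked on simulated data. Exact permutation tests used scipy 1.17.1. Exon lengths came from GENCODE M21, which may differ from the annotation used for counting. Replicates differed by 23.0 to 136 chi-square units per degree of freedom, so none was a copy.

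Replicate numbers are shared between fractions. Deviations from group means of same-numbered libraries correlated at 0.139, 0.164 and 0.206 over genes, every value over 0.1, so numbers were taken as pairs by this check and not by a label. The reported fit is still on group alone and leaves this pairing out, and the fit blocked on replicate number is given as an alternative. Lane follows the numbers (lane 4 for replicate 2, lane 2 otherwise).

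Members and lists were chosen with earlier results of these data known. Named were all members, Lhx5, up to 4 genes per list with the smallest adjusted p, genes called against their list, and the 3 genes most like each member (mean of at least 1 CPM, prior count 2, predicted symbols left out). Other named genes, such as Crym, Ppp1r1b, Six6, Mtnr1a, Cldn5 and the neurofilament genes, were chosen after their values were seen. A few members of the lists and a like gene are not reported here. Alternatives were DESeq2 1.42.0, limma-voom (limma 3.58.1), other scalings, filters, the replicate block, lane, each library left out, and the third pair left out.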

Additional observations from a re-analysis of the deposited data

How the results depend on the processing

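Vim and Col23a1 kept their direction and their call in all 16 alternative fits (-3.28 to -2.15 and -3.19 to -2.37), and Nes in the 15 that tested it (-3.53 to -2.37). Except in the fit with no count filter, Nes entered through its unbound level alone, so its repeated calls are a description and no further support. Scn7a was not called in any of 16, ran from -0.16 to 0.30 with each library left out in turn, and its sign turned with pan-neuronal scaling (-0.52) and without IP replicate 1 (-0.16); the cause was not tested. Gpr50 stayed positive in 16 of 16 (1.29 to 2.63) and passed in 5: DESeq2 (1.93), limma-voom (2.63), the replicate block (2.35), without unbound replicate 3 (1.44) and without the third pair (1.58). Its adjusted p ran from 0.00137 to 0.174. Over the 6 fits that each left out 1 library, 3 to 4 members (Gpr50 added without unbound replicate 3, Rax added without IP replicate 2, where IP held 0 reads), 7 to 13 other tanycyte genes and 5824 to 8587 of all genes were called, the Gpr50 ratio ranged from 2.85 to 4.88 and the Scn7a ratio from 2.34 to 3.14 (values with no test).

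With the replicate number as a block 4 members and 10 of 18 tested other tanycyte genes were called, beside 7969 of all 16991 genes tested. The paired difference of the Gpr50 ratio was 4.18 (exact sign-flip p = 0.25, the smallest 3 pairs allow). That of the Scn7a ratio, chosen after the values were seen, was 2.74. Pan-neuronal scaling moved the median of all genes to -0.66 and gave 583 higher and 8321 lower calls, against 3586 and 3943. The ratio of Gpr50 to Rax could be formed only with 0.5 added to each count, since Rax had libraries at 0. At these depths Rax and Nes rest on 0 to 57 reads per library.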
